A study of Mus musculus with 2 samples.

Results

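The 10 genes described here build the MHC class I presentation pathway of the mouse: the heavy chains H2-K1, H2-D1, H2-T23 and H2-Q7, the light chain B2m, the peptide transporter subunits Tap1 and Tap2, the loading chaperone Tapbp, and the immunoproteasome subunits Psmb8 and Psmb9. They were taken by symbol, and all 10 were found among the 31053 genes of the deposited count tables. The tables hold single-cell RNA sequencing of CD45.2+ cells sorted 10 days after 100000 GL261 cells were placed in the brain. GL261 is a mouse glioma line of the C57BL/6 strain. There was 1 library of wild-type (WT) mice and 1 library of heterozygous CD169-DTR mice, each pooled from 3 male animals aged 8 or 12 weeks. In CD169-DTR mice the human diphtheria toxin receptor replaces 1 copy of Siglec1, which encodes CD169, so cells that express CD169 can be killed by diphtheria toxin. Both groups received diphtheria toxin, on day -1 and day 4 relative to the glioma cells, at 40 ng/g, so the WT animals differ from the CD169-DTR animals by the allele and not by the injection. The comparison of the libraries asks how the level of the pathway in each cell class differed where CD169+ cells had been depleted.

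MHC class I molecules show short peptides from inside the cell to CD8 T cells and are also read by natural killer cells. Peptides are cut by the proteasome, in which Psmb8 and Psmb9 replace constitutive subunits after interferon, and are carried into the endoplasmic reticulum by the Tap1-Tap2 transporter. There tapasin, the product of Tapbp, holds the empty heavy chain at the transporter until a peptide is bound, and every heavy chain needs the light chain, beta-2 microglobulin, to reach the surface. H2-K1 and H2-D1 encode the classical heavy chains of this strain, H2-T23 encodes Qa-1, a nonclassical chain that presents a narrow set of peptides, and H2-Q7 encodes a Qa-2 chain. In resting microglia the pathway is known to be low and to be induced by interferons.

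Of the 10 genes, 9 lie on chromosome 17 within 2.12 Mb of each other (build GRCm38), in the mouse MHC. Tap1 (chr17:34187553-34197225, plus strand) and Psmb9 (chr17:34181987-34187764, minus strand) are arranged head to head. Their annotated 5′ ends overlap, with the starts 211 bases apart. Psmb8 (chr17:34197721-34201454) and Tap2 (chr17:34203527-34216321) follow on the plus strand. B2m (chr2:122147686-122153083) is the exception. It lies on chromosome 2, 8.92 Mb from Siglec1, the locus of the inserted receptor.

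Stretches of the promoters of the heavy chains and of B2m are shown because these 5 windows hold the interferon-type and kappa B motifs for which this gene family is known. They come from the RefSeq promoter windows of build GRCm38.p6, each reaching from 250 bases before the start site to 50 bases after it, and read 5′ to 3′ on the strand of the gene. In H2-K1 (chr17:34000399-34000478, minus), H2-D1 (chr17:35262923-35262952, plus) and H2-Q7 (chr17:35439002-35439081, plus) the capitals mark the kappa B motif (GGGGA, any base, then TCCC) and, after it, the interferon regulatory factor core AANNGAAA read on the other strand. In H2-T23 (chr17:36032796-36032825, minus) and B2m (chr2:122147528-122147607, plus) they mark the interferon-stimulated response core (GAAA, any pair of bases, then GAAA), read on the other strand in H2-T23.
H2-K1: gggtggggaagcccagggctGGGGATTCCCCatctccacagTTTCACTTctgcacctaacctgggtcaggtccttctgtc
H2-D1: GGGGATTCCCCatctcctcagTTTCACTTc
H2-Q7: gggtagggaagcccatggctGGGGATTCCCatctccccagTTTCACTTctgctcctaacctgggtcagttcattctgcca
H2-T23: TTTCTCTTTCataaagacacaaatgatgca
B2m: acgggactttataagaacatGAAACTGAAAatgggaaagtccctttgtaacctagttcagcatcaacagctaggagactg

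Windows were found for 9 of the 10 genes and were searched on both strands. The kappa B motif was present in H2-K1, H2-D1 and H2-Q7 and in 0.323% of 32851 windows. The longer response core was present in H2-T23 and B2m and in 3.44% of all windows. The shorter AANNGAAA core, which every match of the longer core contains, was present in 5 of the genes and in 23.9% of all windows, and the TTCNNNGAA motif was present in Psmb8 and in 8.30% of all windows. Over an 80-base alignment, H2-K1 and H2-D1 differed at 2 bases, H2-K1 and H2-Q7 at 9, and H2-D1 and H2-Q7 at 8. These matches are letters in a window, and the data hold no binding measurements.

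The WT library held 101808996 UMIs (unique molecular identifiers, 1 per captured RNA molecule) and the CD169-DTR library 84065489. A barcode counted as a cell from 1000 UMIs upwards when no more than 17% of its UMIs were mitochondrial, which gave 10107 in WT with a median of 7776 UMIs and 7604 in CD169-DTR with a median of 8099.5. Of these barcodes, 21 occurred in both libraries. Siglec1 had a level of 38.2 CPM in WT and 11.97 in CD169-DTR macrophages, and 19.1 against 5.62 in microglia. Cells were clustered without the 10 genes, and clusters were named from marker genes. The 11 classes described here are microglia, macrophages, dendritic cells, plasmacytoid dendritic cells, granulocytes, T, NK and B cells, and endothelial-like, choroid plexus-like and mural-like cells, all of which are marker-based calls (microglia-like, macrophage-like and so on, with the suffix written only for the non-immune classes). A cluster that best matched border-associated macrophage markers was counted as macrophages. This held for the Gpnmb cluster, with 962 WT and 305 CD169-DTR cells. Its score was 0.47 for those markers and 0.30 for macrophage markers. Ptprc, the gene of CD45, was between 302 and 1103 CPM in the 8 immune classes but between 18.5 and 142 in endothelial-like, mural-like and choroid plexus-like cells, which therefore did not match the CD45.2+ label. An erythroid-like cluster of 82 WT and 93 CD169-DTR cells, with a summed level of the 10 genes of 8161 and 6599.6 CPM, and 4 clusters without a name entered no comparison of classes. The erythroid-like cluster was led by hemoglobin genes but also scored 0.78 for microglial and 0.78 for homeostatic markers. Its level therefore cannot be assigned to erythroid cells. Each group is 1 library and the libraries were run on different lanes, so genotype, library and lane cannot be told apart and no p-value can be given. Levels in CPM are UMIs of a gene per 1e+06 UMIs of the class, and ratios are log2 of WT over CD169-DTR. Brackets give exact 95% intervals that cover counting error only.

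All 8 immune classes expressed the pathway, and choroid plexus-like cells had the lowest level of every gene. The 10 genes together took 1.52% of all UMIs in WT cells and 1.30% in CD169-DTR cells. Summed over the genes, microglia had the highest level in WT, with 18131 CPM against 14330 in CD169-DTR, followed in WT by NK cells (17082 and 13982), T cells (14768 and 13009.8), macrophages (14171 and 13268), dendritic cells (DC; 14039 and 11616) and plasmacytoid DC (pDC; 13986 and 15356). In CD169-DTR the 14 pDC had the highest sum. Granulocytes (12316 and 8454), B cells (11353 and 8641) and endothelial-like cells (11220.3 and 10309) were lower, and choroid plexus-like cells had 1019 and 1368 CPM. Macrophages, DC and pDC of the WT library differed little from one another in this sum, and the plot of levels by class shows that single genes were spread more widely than this sum.

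**Figure D1:**
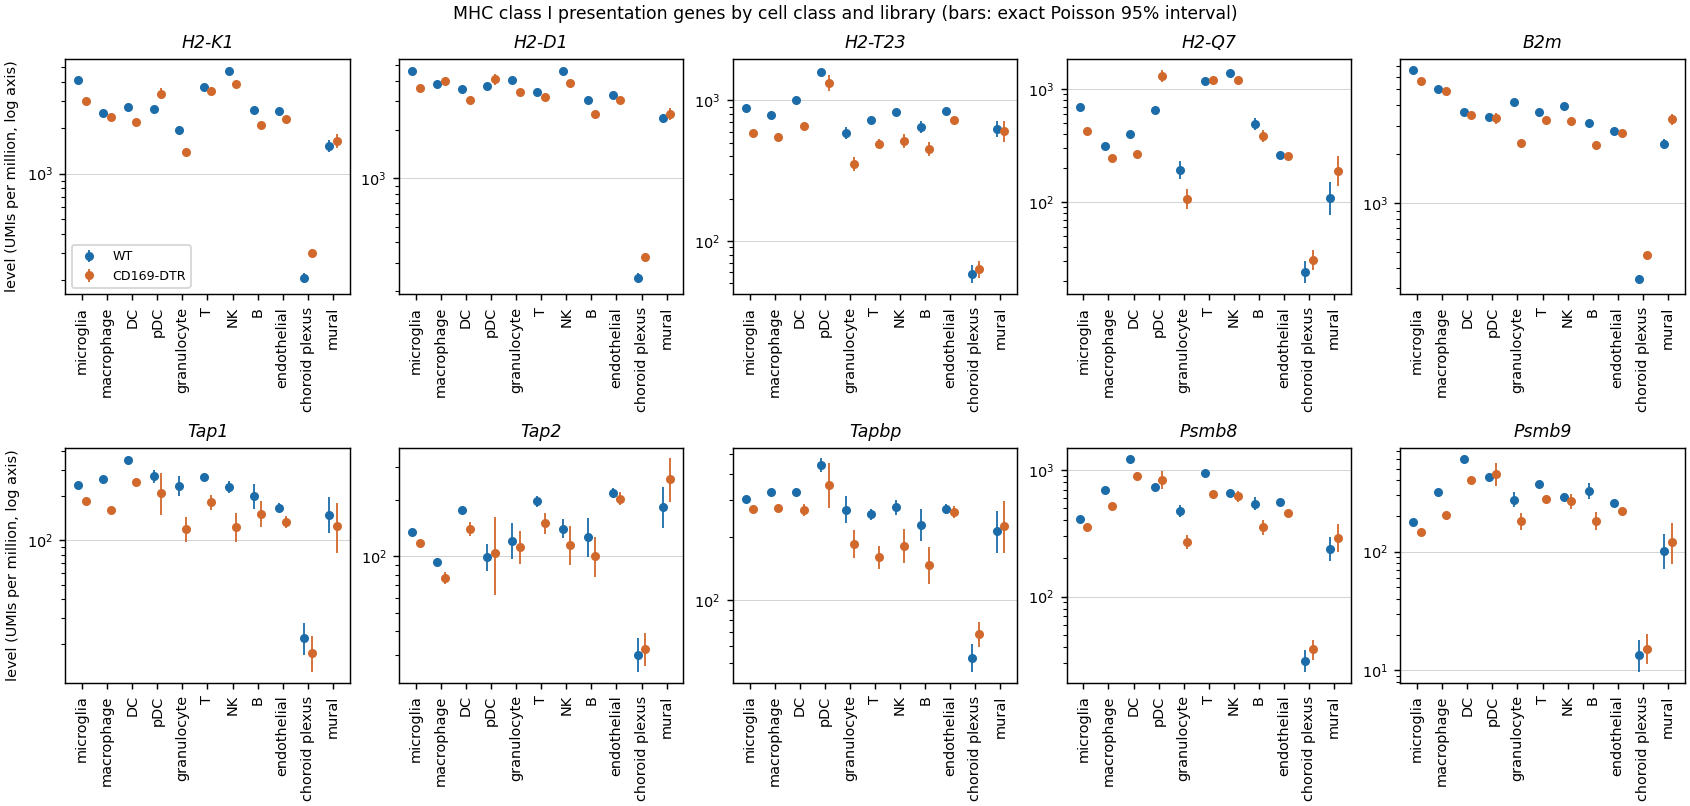
Level of each of the 10 genes (CPM, log axis) in each cell class, with the WT and the CD169-DTR library as separate points and bars for exact 95% Poisson intervals. Choroid plexus-like cells are lowest for every gene, and H2-Q7 spans the widest range among the immune classes.

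H2-Q7 divided the immune classes most clearly. In WT it was 1394 CPM in NK cells, 1192 in T cells, 703 in microglia, 657 in pDC, 497 in B cells, 401 in DC, 318 in macrophages and 194 in granulocytes, and NK and T cells were also high in CD169-DTR (1199 and 1205). H2-T23 was highest in pDC (1589 and 1335 CPM in WT and CD169-DTR) and, in WT, next in DC (1011 and 657). Psmb8 was highest in DC, at 1216 and 901 CPM. Psmb9 was highest in DC in WT (599, against 430.15 in pDC) but in pDC in CD169-DTR (449, against 399 in DC). In WT microglia, the class with the highest sum in that library, Psmb8 and Psmb9 were the lowest of the immune classes (411 and 176 CPM), and their sum rested on B2m (6578), H2-D1 (4587) and H2-K1 (4118). Tap2 was at 93.4 CPM in WT macrophages and 217 in endothelial-like cells, above every immune class.

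At a common depth of 4500 UMIs per cell, at least 1 UMI of B2m was found in 100% of WT microglia and 100% of CD169-DTR microglia. In choroid plexus-like cells the same shares were 43.8% and 49.4%, and H2-Q7 was found in 6.25% and 6.10% of them. H2-Q7 had a UMI in 68.3% of WT microglia [66.8, 69.7] and 56.6% of CD169-DTR microglia [55.2, 58.0], and Tap1 in 58.5% and 48.6%. In macrophages the shares with a Tap1 UMI were 60.9% [58.5, 63.3] and 50.8% [46.9, 54.7], and those with a Psmb9 UMI 69.8% and 59.4%. The median depths before thinning were 7655 and 7897 UMIs in microglia and 7220.5 and 11822 in macrophages, and 627 and 546 microglia and 661 and 78 macrophages were too shallow and were left out.

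In microglia every gene of the pathway was higher in the WT library, but by less than 1.5-fold for most. H2-Q7 was 703 CPM in WT and 427 in CD169-DTR (log2 ratio 0.72 [0.69, 0.74]), and H2-T23 was 884 and 588 (0.59 [0.57, 0.61]). These were the 2 genes past 1.5-fold, in a class where 1.72% of 11616 genes with at least 100 UMIs were that much higher in WT and 1.3% that much higher in CD169-DTR. Among the classical chains, H2-K1 was 4118 in WT and 2993 in CD169-DTR (0.46 [0.45, 0.47]) and H2-D1 4587 and 3640.4 (0.33 [0.32, 0.34]). B2m differed less, with 6578 and 5605 (0.23 [0.22, 0.24]). For the transporter, Tap1 was 236 and 185 (0.35 [0.31, 0.39]) and Tap2 135 and 118 (0.19 [0.14, 0.24]). Tapbp (0.16), Psmb8 (0.22) and Psmb9 (0.26) completed the set. All 10 intervals lay above 0, and the median over the genes was 0.30 against -0.04 over all genes of the class. The 1.5-fold call was kept under 8 of 13 alternatives for H2-T23 and 12 of 13 for H2-Q7. The alternative that allowed the 10 genes as variable features gave the same clusters, so it could not change a call here or in other classes. With each interferon score range (described further on) weighted alike in both libraries, a weighting chosen after seeing the data, the ratios were 0.38 and 0.37.

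In macrophages the 2 highest ratios were those of other genes of the pathway than in microglia. Tap1 was 259 CPM in WT and 160 in CD169-DTR (0.69 [0.61, 0.78]) and Psmb9 was 321 and 203 (0.66 [0.59, 0.73]), the 2 genes past 1.5-fold where 5.85% of 9344 genes were (and 0 the other way, against 4.29%). H2-T23 (782 and 548, 0.52 [0.47, 0.56]) and Psmb8 (694 and 519, 0.42 [0.37, 0.47]) came next, followed by H2-Q7 (318 and 248, 0.36). The abundant surface chains were close in the libraries: H2-K1 was 2520 and 2376 (0.08 [0.06, 0.11]), B2m 5023 and 4887 (0.04 [0.02, 0.06]) and H2-D1 3834 and 3974 (-0.05 [-0.07, -0.03]), so the summed level was only 0.09 higher in WT. The median over the 10 genes was 0.32 against -0.05 over all genes. CD169-DTR macrophages were fewer (735 against 2276) and deeper, and with the same weight for each macrophage cluster in both libraries the median was 0.23 and 0 genes passed 1.5-fold. Giving the interferon score ranges the same weight left a median of 0.058.

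**Figure D2:**
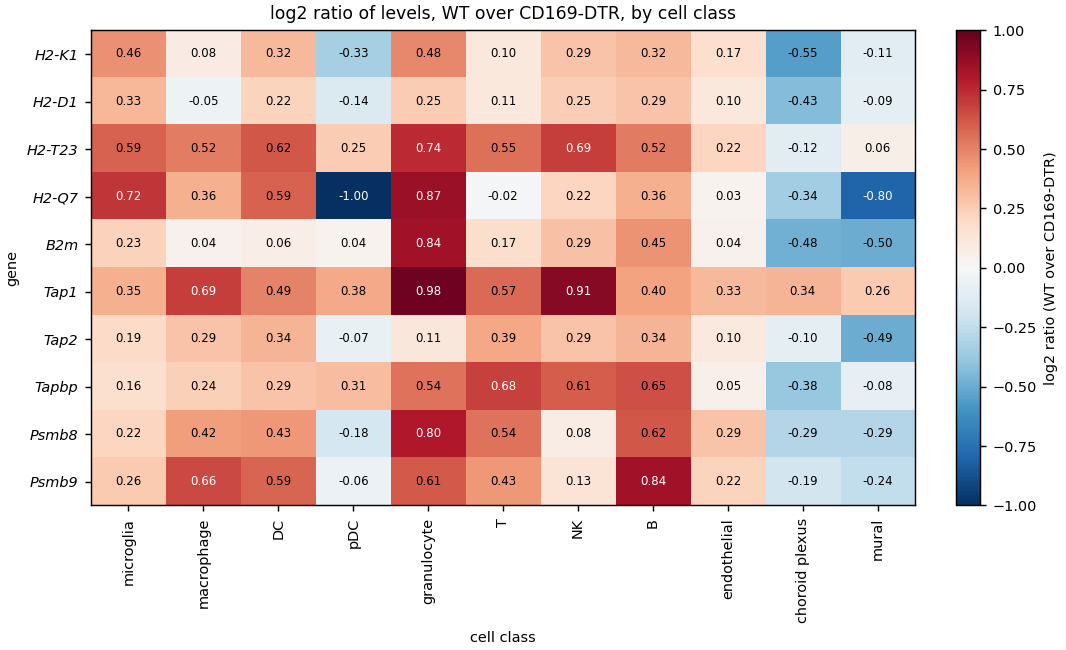
Log2 ratio of the level in WT over CD169-DTR for each of the 10 genes (rows) in each cell class (columns), as a color and a printed value, red for higher in WT. All 10 values are above 0 in microglia, DC, granulocytes, NK, B and endothelial-like cells, and 9 of 10 are below 0 in choroid plexus-like cells.

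By the median over the genes, 0.68, the ratio was highest in granulocytes, the shallowest immune class, with 169 WT and 194 CD169-DTR cells and medians of 2924 and 3629 UMIs. There 6 of the 10 genes were at least 1.5-fold higher in WT, where 12.6% of 2016 genes were, and 0 were 1.5-fold higher in CD169-DTR, where 10.4% were. Tap1 was 234 CPM in WT and 119 in CD169-DTR (0.98 [0.61, 1.35]), H2-Q7 was 194 and 107 (0.87 [0.47, 1.26]), B2m was 4165 and 2333 (0.84 [0.75, 0.92]) and Psmb8 was 475 and 272 (0.80 [0.56, 1.05]). In granulocytes the 1.5-fold call was kept under 10 of 11 alternatives for H2-Q7 (lowest ratio 0.44) and Psmb9 (lowest 0.51). It was kept under 11 of 11 for H2-T23, B2m, Tap1 and Psmb8. Granulocytes and B cells were the immune classes in which B2m differed most, and the granulocyte H2-D1 ratio was 0.25. In DC, H2-T23 (1011 and 657, 0.62), H2-Q7 (401 and 267, 0.59) and Psmb9 (599 and 399, 0.59) were past 1.5-fold, where 5.86% of 8348 genes were (0 the other way, against 5.34%), while B2m was 3626 and 3469 (0.06). The call was kept under 10 of 11 alternatives for H2-T23, 7 for H2-Q7 and 6 for Psmb9. The Ccr7 cluster, with 1176 and 796 CPM of H2-Q7, held 147 of 1151 WT and 14 of 240 CD169-DTR dendritic cells. With each cluster weighted alike in both libraries the ratios were 0.42 for H2-Q7 and 0.46 for Psmb9.

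In NK, T and B cells H2-T23, Tap1 and Tapbp had higher ratios than the classical chains H2-K1 and H2-D1. In NK cells Tap1 was 230.3 CPM in WT and 123 in CD169-DTR (0.91 [0.56, 1.27]), H2-T23 828 and 514 (0.69 [0.52, 0.86]) and Tapbp 277 and 182 (0.61 [0.32, 0.91]), all past 1.5-fold where 7.14% of 3726 genes were (0 the other way, against 3.11%). H2-K1 was 4734 and 3878 (0.29) there. In T cells Tapbp was 257 and 160.3 (0.68 [0.49, 0.89]), the only gene of the 10 past 1.5-fold where 10.4% of 5920 genes were (0 the other way, against 2.15%), and H2-Q7 was 1192 and 1205 (-0.02 [-0.09, 0.06]). The median over the 10 genes in T cells was 0.41, against 0.10 over all genes, of which 61.8% were higher in WT. T cells with a Cd8a or Cd8b1 UMI and no Cd4 or Foxp3 UMI, 166 in WT and 87 in CD169-DTR, had ratios of 0.76 for Tap1, 0.76 for Tapbp, 0.72 for Psmb9 and 0.11 for H2-K1. T cells with a Cd4 UMI but no Cd8a, Cd8b1 or Foxp3 UMI numbered 65 in WT and 41 in CD169-DTR. Their intervals held 0 for Tap1 (0.33), Tapbp (0.48) and Psmb9 (0.12). In these Cd4 cells H2-Q7 was lower in WT (-0.24 [-0.46, -0.02]). H2-T23 (0.62), Psmb8 (0.39) and H2-D1 (0.16) were higher there, with intervals above 0. T cells with a Foxp3 UMI had lower H2-D1 (-0.31) and H2-T23 (-0.32) but higher Tap2 (0.94 [0.21, 1.77]) and Psmb8 (0.41 [0.12, 0.72]) in WT, from only 54 and 15 cells, and the other 6 intervals held 0. In B cells, with 74 WT and 124 CD169-DTR cells, Psmb9 (326 and 182, 0.84), Tapbp (0.65) and Psmb8 (0.62) were past 1.5-fold, where 10.5% of 1625 genes were (0 the other way, against 7.51%).

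In pDC, with 138 WT and 14 CD169-DTR cells, 0 genes were 1.5-fold higher in WT, where 14.1% of 2642 genes were, and H2-Q7 was lower in WT at 657 against 1313 CPM (-1.00 [-1.20, -0.79]), where 4.39% of genes were 1.5-fold higher in CD169-DTR. In endothelial-like cells all 10 genes were higher in WT, with a median of 0.14 against -0.02 over all genes, but 0 were past 1.5-fold in either direction, against 2.02% of 8029 genes higher in WT and 1.22% in CD169-DTR, and their highest ratio was 0.33, for Tap1 (166 and 133). In choroid plexus-like cells H2-K1 was 205 and 301 (-0.55 [-0.70, -0.41]), H2-D1 239 and 323 (-0.43) and B2m 342 and 479 (-0.48). Of the 9 genes with at least 100 UMIs, 0 were past 1.5-fold, where 1.32% of 5925 genes were higher in WT and 6.28% in CD169-DTR by that much. The median over the 9 was -0.34, and 1 of the 9 was higher in WT, against a median of -0.06 over all genes. In mural-like cells, with 54 and 34 cells, B2m was 2315 and 3271 (-0.50), and of the 7 genes with at least 100 UMIs 0 were past 1.5-fold, against 11.3% of 989 genes higher in WT and 6.88% in CD169-DTR.

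Free RNA was estimated from lymphocytes that held a UMI of microglial genes. It came to 169 UMIs per droplet in WT and 97.8 in CD169-DTR, or 2.17% and 1.21% of the median cell. In barcodes of 10 to 100 UMIs, H2-K1 was 3194 and 2935 CPM and Psmb8 694 and 403. Its part in the choroid plexus-like values was not tested.

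The level of the pathway was graded over the states of microglia. Clusters were formed from all other genes, so these values are descriptions of the clusters. Homeostatic microglia here means cluster 0, led by P2ry12, which had the highest score for homeostatic genes (1). The Lag3 cluster also matched the homeostatic list best among the state lists, with a lower score (0.65). All steps given are over cluster 0 alone. Homeostatic microglia had a summed level of 8574 CPM in WT and 7978 in CD169-DTR. The interferon-responding cluster, led by Cxcl13, Cxcl10 and Ccl12, had 26607 and 21231. The ratio of these states was 3.1-fold in WT (log2 1.63 [1.62, 1.65]) and 2.66-fold in CD169-DTR (1.41 [1.40, 1.43]). Between them lay the Lag3 cluster (16844 and 15133), the Lpl and Cst7 cluster (22213 and 18223) and the Spp1 and Igf1 cluster (20937 and 15809). Clusters led by cell cycle genes lay there too, with leading genes Ccnb2 (22000 and 16833), Mcm5 (19381 and 15908) and Mki67 (18748 and 15281). The Il1a and Atf3 cluster had 13899 and 11813. Lpl, Cst7 and Spp1 are known as genes of disease-associated microglia.

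**Figure D3:**
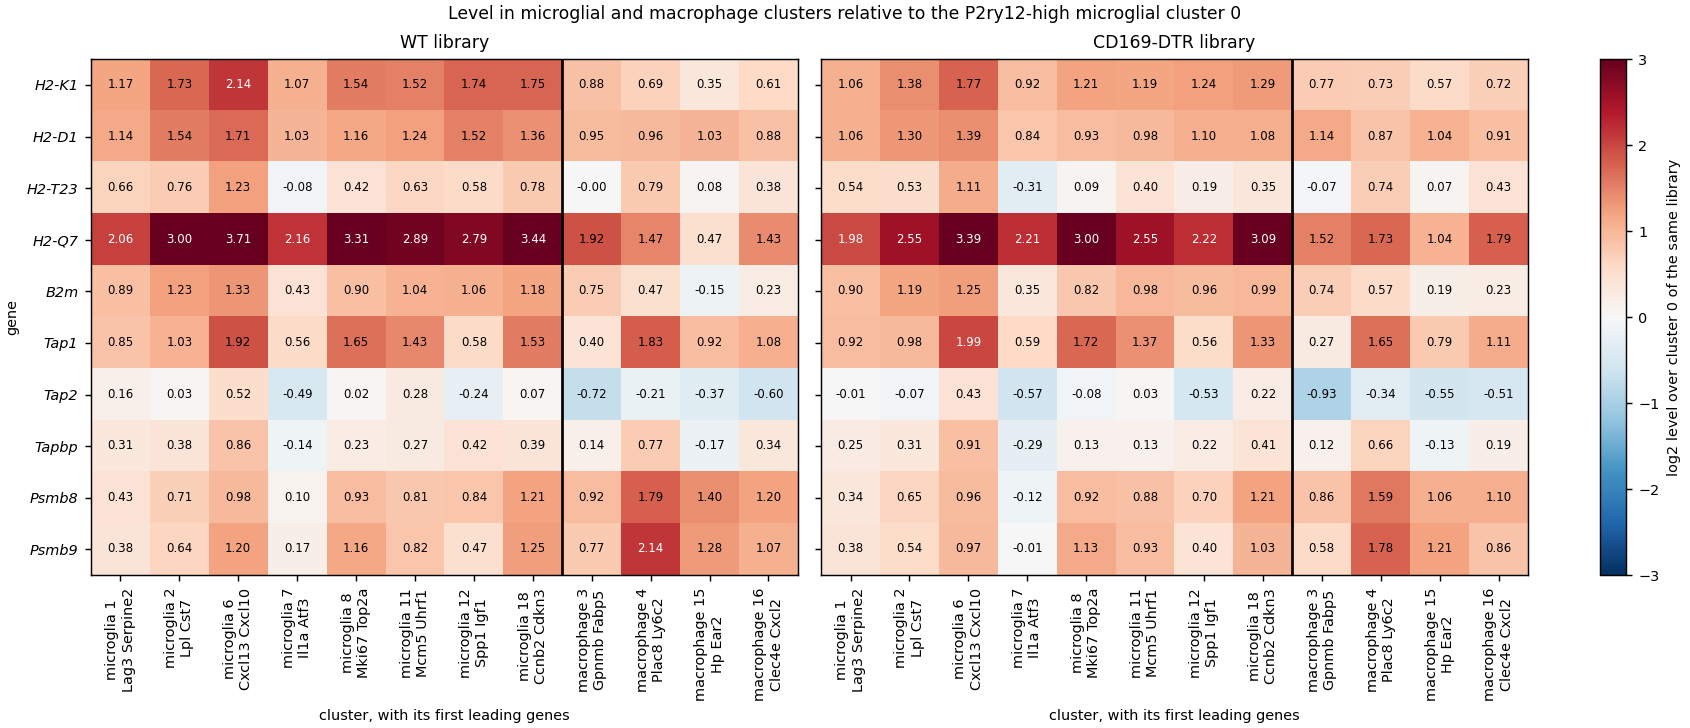
Log2 of the level of each of the 10 genes (rows) in each microglial and macrophage cluster (columns, with leading genes) over its level in homeostatic microglia, cluster 0, of the same library, with WT on the left and CD169-DTR on the right. H2-Q7 has the highest values in microglial clusters, Psmb8 and Psmb9 are highest in macrophage cluster 4, and Tap2 is below 0 in every macrophage cluster.

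The genes did not share 1 step between these states. H2-Q7 was 105 CPM in homeostatic and 1375 in interferon-responding WT microglia, a 13.1-fold step, and 84.5 and 887 in CD169-DTR, a 10.5-fold step. H2-K1 was 4.41-fold and 3.40-fold higher, Tap1 3.78-fold and 3.98-fold, and Psmb8 1.98-fold and 1.94-fold. Tap2 had the smallest step of the 10 genes, from 128 to 184 CPM in WT (1.43-fold) and from 123 to 166 in CD169-DTR (1.35-fold), although its partner in the transporter is Tap1. In the Spp1 and Igf1 cluster Tap2 was lower than in homeostatic microglia, at 108 CPM in WT and 85.5 in CD169-DTR.

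Macrophages held the genes of the pathway in other proportions. The Plac8 and Ly6c2 cluster was compared with homeostatic microglia of the same library. Psmb9 was 495 against 112 CPM in WT (4.42-fold) and 345 against 101 in CD169-DTR (3.43-fold), and Psmb8 was 3.45-fold and 3.02-fold higher. H2-K1 was only 1.61-fold and 1.66-fold higher and B2m 1.39-fold and 1.49-fold. Tap2 was lower in these macrophages than in homeostatic microglia, at 111 against 128 CPM in WT and 97.5 against 123 in CD169-DTR. The Gpnmb macrophage cluster did not share the high Psmb9 step. There Psmb9 was 1.71-fold and 1.49-fold higher than in homeostatic microglia in WT and CD169-DTR, and H2-K1 1.84-fold and 1.70-fold. In WT, Psmb9 and H2-K1 were 2.43-fold and 1.27-fold higher in the Hp and Ear2 cluster. In the Clec4e and Cxcl2 cluster they were 2.10-fold and 1.52-fold higher.

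Within the clusters the difference between the libraries kept its direction for part of the genes. In microglia the intervals of H2-K1, H2-D1, H2-T23, H2-Q7, B2m and Tap1 lay above 0 in 9 of 9 clusters. The H2-K1 ratio ran from 0.08 in the homeostatic cluster (1519 and 1434 CPM) to 0.59 in the Spp1 and Igf1 cluster (5081 and 3386), and H2-T23 ran from 0.32 to 0.75. Tapbp had its interval above 0 in 6 clusters and Tap2 in 5. In macrophages H2-T23, Tap1, Psmb8 and Psmb9 had intervals above 0 in 4 of 4 clusters, with Tap1 between 0.26 and 0.47. H2-D1 was lower in WT in the Gpnmb cluster (3822 and 4236, -0.15) and higher in the Plac8 and Ly6c2 cluster (3869.8 and 3511, 0.14). H2-Q7 had its interval above 0 in the Gpnmb cluster alone (397 and 243, 0.71 [0.61, 0.81]), and its intervals held 0 in the other macrophage clusters.

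To set the genes beside interferon response cell by cell, cells were thinned to 4500 UMIs and sorted into 5 ranges by their UMIs of 20 interferon-stimulated genes, none of them among the 10. The median score was 29 in WT and 18 in CD169-DTR microglia, and 75 and 26 in macrophages. The highest range held 25.7% of WT and 13.9% of CD169-DTR microglia, and 26.1% and 5.02% of macrophages. These ranges are slices of a continuous score, with 100 WT and 86 CD169-DTR microglia within 1 UMI of the border of the highest range.

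In microglia H2-K1 and H2-D1 climbed steeply over the ranges and were higher in WT only in the upper ones. H2-K1 was 1152 CPM in WT and 1220.4 in CD169-DTR microglia of the lowest range (-0.08 [-0.15, -0.02]) and 5607 and 4173 in the highest (0.43 [0.40, 0.46]), where the mean scores were 85.0 and 82.3. H2-D1 went from 1475 and 1591 (-0.11) to 5522 and 4360.3 (0.34). The ratio of the summed level was -0.01, -0.02, 0.14, 0.23 and 0.30 from the lowest to the highest range. H2-T23 differed from this, with its interval above 0 in every range. Its ratio ran from 0.18 [0.07, 0.29] in the lowest range to 0.45 [0.39, 0.52] in the highest. Psmb9 was also higher in WT in the lowest range (0.24 [0.01, 0.47]). The intervals of H2-Q7, B2m, Tap1, Tap2, Tapbp and Psmb8 held 0 there. Tap1 went from 79.5 and 68.2 CPM to 386 and 351 (0.14 [0.03, 0.25]) and differed less between libraries than H2-K1 did in the highest range.

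In macrophages H2-K1 was nearly flat over the score, between 2229 and 2607 CPM in WT and between 2262 and 2600 in CD169-DTR. Tap1 and Psmb9 were graded, from 132 to 448 and from 155 to 561 CPM in WT and from 113 to 397 and from 172 to 498 in CD169-DTR. Tap1 in the highest range was 448 and 397 (0.17 [-0.21, 0.58]), with 421 WT and 33 CD169-DTR cells. Psmb9 there was 561 and 498 (0.17 [-0.17, 0.53]), and in the fourth range 393 and 315 (0.32 [0.01, 0.65]). H2-T23 was higher in WT in the lowest range, at 541 and 432 (0.32 [0.14, 0.51]), and in the fourth, at 952 and 769 (0.31 [0.10, 0.51]). The ratio of the summed level was 0.02, -0.03, -0.02, 0.14 and 0.01 over the ranges.

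**Figure D4:**
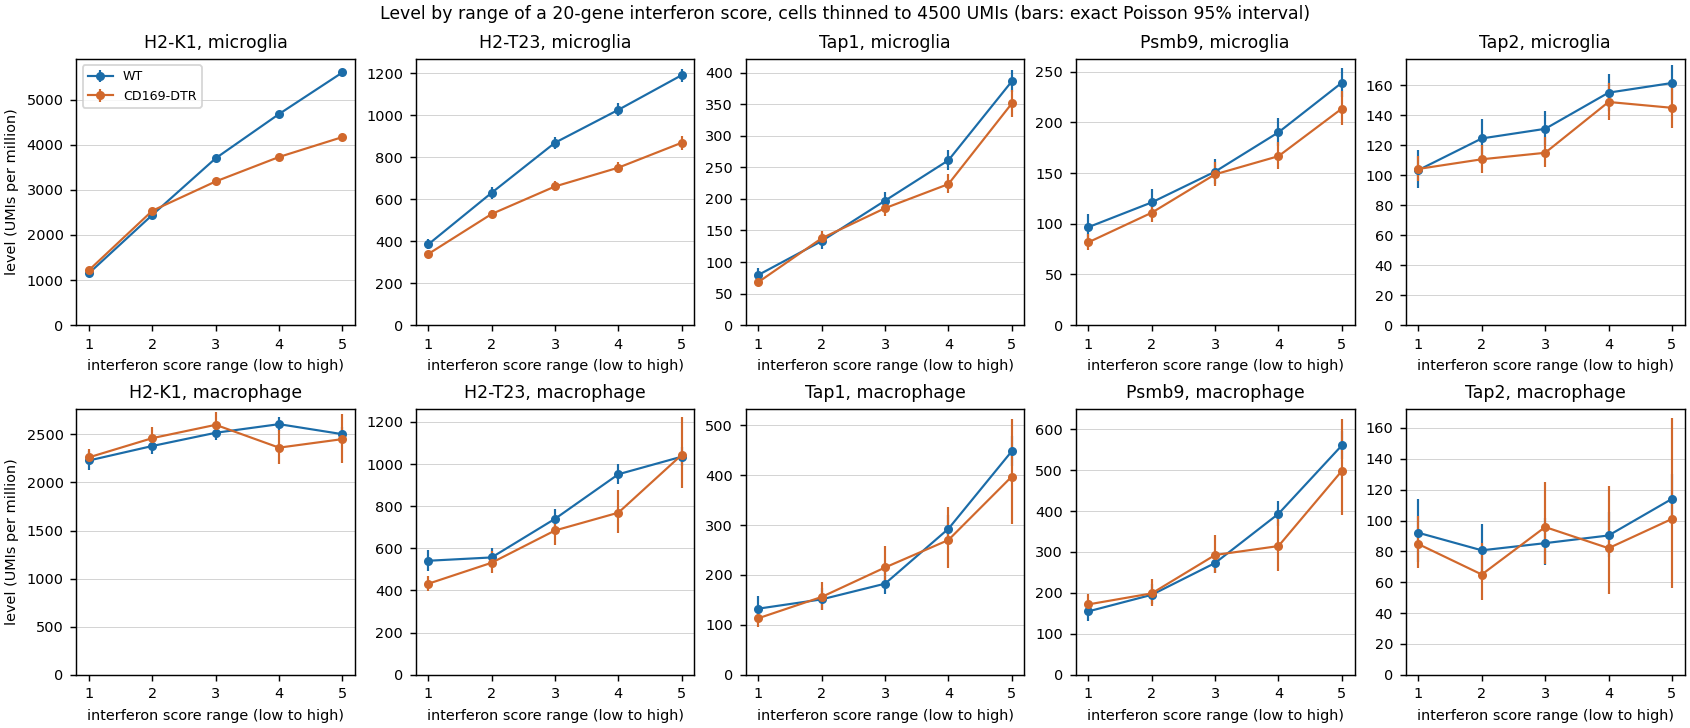
Level of H2-K1, H2-T23, Tap1, Psmb9 and Tap2 (CPM at 4500 UMIs per cell, each panel from 0) over 5 ranges of the interferon score in microglia and macrophages of both libraries, with exact 95% Poisson intervals. H2-K1 climbs in microglia and parts between the libraries at high scores, and is nearly flat in macrophages, where Tap1 and Psmb9 climb.

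Cells with a Siglec1 UMI were set against those without one. Cells were split by their Siglec1 counts before thinning, and only the levels of the pathway genes were read at the common depth. Deeper cells were therefore more likely to fall in the group with a Siglec1 UMI, and the part of depth in these differences was not tested. In microglia, 600 WT cells with a Siglec1 UMI had 5438 CPM of H2-K1 and 3498 cells without had 3552 (0.61 [0.59, 0.64]), and in CD169-DTR the values were 4142 in 235 cells and 2700.1 in 4572 cells (0.62 [0.57, 0.66]). H2-Q7 was likewise higher with a Siglec1 UMI, by 0.88 in WT and 1.08 in CD169-DTR. In WT macrophages H2-Q7 was 404 CPM in 392 cells with and 288 in 1223 cells without (0.49 [0.36, 0.62]), and H2-K1 2705 and 2401 (0.17). In CD169-DTR macrophages H2-Q7 was 185 in 89 cells with and 278 in 568 cells without (-0.59 [-0.96, -0.24]), and H2-K1 2339.6 and 2405 (-0.04 [-0.14, 0.06]).

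The exchange of proteasome subunits was read from the UMIs of each induced subunit over its constitutive counterpart. These are 3′ UMI counts, which hold no factor for transcript length, and capture may still differ between genes, so the ratios are compared between cells and not with 1. Psmb8 over Psmb5 was 2.86 in WT and 2.53 in CD169-DTR microglia, 4.52 [4.34, 4.71] and 3.06 [2.90, 3.24] in macrophages, 6.74 and 5.41 in DC and 6.02 and 3.50 in granulocytes, but 0.0796 and 0.0929 in choroid plexus-like cells. In T cells it was 5.52 [5.09, 5.99] and 5.81 [4.95, 6.85] and in pDC 4.11 and 4.34, with overlapping intervals in each. Psmb9 over Psmb6 was 0.774 and 0.688 in microglia, 1.08 and 0.704 in macrophages, 2.44 and 1.70 in DC and 1.47 and 1.55 in NK cells. Psmb10 over Psmb7, the remaining pair, was 2.78 and 1.95 in macrophages. Microglia had lower ratios than macrophages and DC in both libraries for Psmb8. For Psmb9 the same held except in CD169-DTR macrophages, whose interval [0.66, 0.75] overlapped that of microglia [0.67, 0.71].

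**Figure D5:**
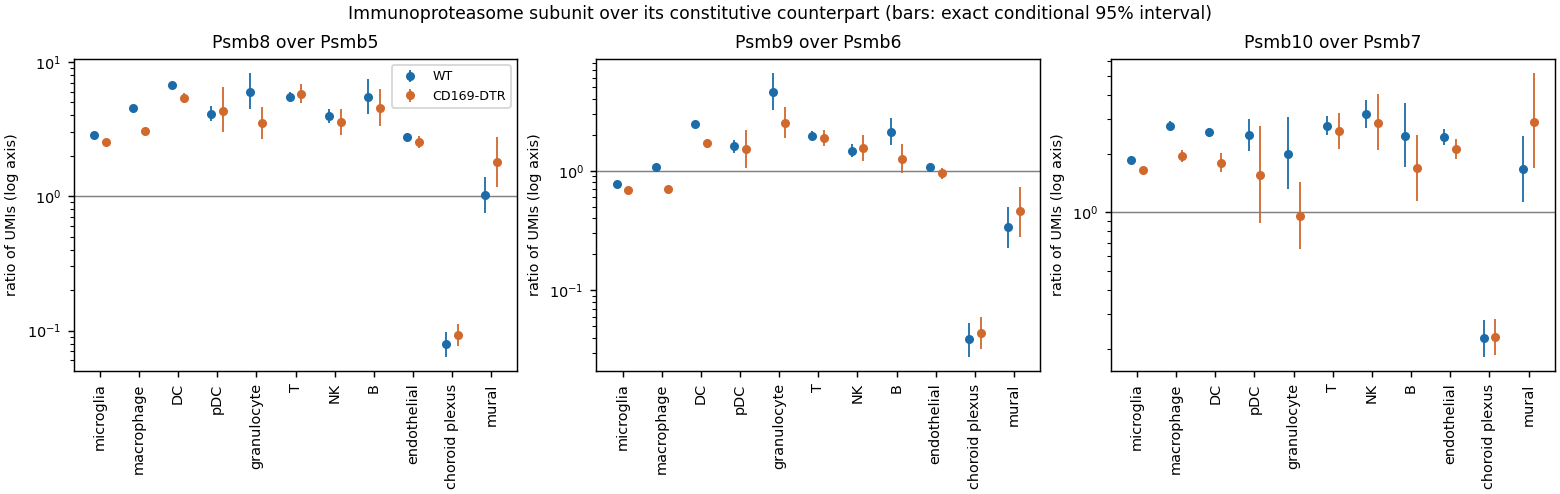
UMIs of each immunoproteasome subunit over its constitutive counterpart (log axis, grey line at a ratio of 1) by cell class in the WT and CD169-DTR libraries, with exact 95% intervals for counting error. For Psmb8 over Psmb5, DC lie high, microglia lower and choroid plexus-like cells far below the immune classes.

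Other genes of the pathway were taken from a list of 28, of which 27 were in the tables. In microglia 18 of the 27 were higher in WT and 0 were past 1.5-fold in either direction, with a median of 0.05, while 37.1% of all 11616 genes were higher in WT and their median was -0.04. In macrophages 17 of 27 were higher in WT, where 43.4% of all genes were, and 5 were past 1.5-fold, against 5.85% of all genes. Among these, Nlrc5, the transactivator of class I genes, was 46.9 CPM in WT and 24.4 in CD169-DTR (0.94 [0.74, 1.16]) and Irf1 209 and 116 (0.85), and H2-T22 (0.68) and H2-T24 (0.67) are nonclassical heavy chains. Past 1.5-fold the other way, against 4.29% of all genes, were Mr1 (4.71 and 8.80, -0.90), which presents vitamin B metabolites, and Cd1d1 (3.19 and 4.91, -0.62), which presents lipids. The general chaperones of peptide loading were lower in WT macrophages, with Calr at 509 and 676 (-0.41), Canx at 147 and 191 (-0.38) and Pdia3 at 318 and 403 (-0.34). The constitutive subunits Psmb5, Psmb6 and Psmb7 lay between -0.14 and 0.04.

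Over the 11 classes of the WT library, the genes outside the pathway whose levels ran most alike included Sp100 for Psmb9 (r = 0.97) and Nfkb1 for Tap1 (r = 0.97), and the same pairs had r = 0.95 and 0.94 in CD169-DTR. Other close genes of the WT library were less alike there: Pcsk7 had r = 0.96 with Tapbp in WT and 0.23 in CD169-DTR, and 0.96 and 0.41 with H2-T23. Within the pathway Psmb8 and Psmb9 were closest (r = 0.99), while Tap2 and Psmb9 had r = 0.69 in WT and 0.57 in CD169-DTR. The 11 points share their library and include choroid plexus-like cells at very low levels, so these values are descriptions.

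Reads of near-identical genes limit single members. In the last 500 bases of H2-T23, 53 of 410 windows of 91 bases (12.9%) were shared with Rab33b, Hook2 or H2-T-ps, and 0 windows were shared exactly for the other 9 genes. The H2-Q genes are nonetheless a family of near copies, and the assignment of UMIs to H2-Q7 is uncertain.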

How the data were processed

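Per the labels, CD45.2+ cells of GL261 gliomas were sorted and made into droplet 3′ libraries. The authors aligned and counted them with Cell Ranger (3.1.0 in the file headers) on mm10 and deposited whole-number UMI counts for every barcode. No other normalization was applied to the deposited counts. Barcodes under 1000 UMIs, or with over 17% of UMIs from mitochondrial genes, were left out. The libraries were integrated and clustered with Seurat 5.3.0 in R 4.3.3 on 2000 variable features, which held 0 of the 10 genes even when they were allowed. Clusters were named from marker lists. Doublets were not removed in the main values, and Scrublet (scanpy 1.11.5, Python 3.11.15) served as an alternative.

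UMIs were summed per class and library and given as CPM with exact Poisson intervals, and ratios with exact conditional 95% intervals. Shares have Clopper-Pearson intervals. Background percentages cover genes with at least 100 UMIs in a class. With 1 library per group no test was made. Every one of the 10 genes is described in each class, and of other genes only a list chosen by role and the 3 most similar per gene, by Pearson correlation of log2(CPM + 10) over classes. The genes, lists and rules were chosen with earlier results of these data known. Scripts were tested on simulated data. The alternatives are in the closing section. 1 gene of the list is not reported here.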

Additional observations from a re-analysis of the deposited data

Results flagged for a closer look

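Several genes of the pathway were higher in WT in 1 class and higher in CD169-DTR in another, with intervals on opposite sides of 0. The difference between the classes was not tested. The log2 ratio of H2-K1 was 0.48 in granulocytes and -0.55 in choroid plexus-like cells, and that of H2-D1 was 0.33 in microglia and -0.43 in choroid plexus-like cells. H2-Q7 had 0.87 in granulocytes and -1.00 in pDC, the latter from 14 CD169-DTR cells. B2m had 0.84 in granulocytes and -0.50 in mural-like cells, and Tapbp had 0.68 in T cells and -0.38 in choroid plexus-like cells.

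Signal of the pathway was also present in the erythroid-like cluster, with 8161 and 6599.6 CPM in WT and CD169-DTR. That cluster also scored 0.78 for microglial markers, so its signal cannot be assigned to erythroid cells. Signal was present as well in 4 clusters that carried no class name. Neither the erythroid-like cluster nor these 4 entered a comparison of classes. Summed over the 10 genes, the cluster led by Acta2, Tagln and Myl9 had 4695 CPM in WT and 2469 in CD169-DTR, from 24 and 22 cells. The cluster led by Mgp, Dcn and Col1a1 had 4471 and 4640.2, and the cluster led by Serpina3n, Col9a2 and Moxd1 had 3966 and 3032. The cluster led by Mcpt2, Cma1 and Mcpt1, which are known as mast cell genes, had 7591 and 5766, from 26 and 9 cells.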

How the results depend on the processing

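No paired analysis was possible because each group is 1 library. Without replicates, biological error could not be measured. No alternative turned the direction of a median or of the state comparison. The median log2 ratio in microglia, 0.30, became 0.34 with median-ratio scaling, 0.24 with the same weight for each cluster, 0.26 without the interferon-responding cluster and, in an alternative chosen after seeing the data, 0.14 with the same weight for each score range. In macrophages 0.32 became 0.23 with equal cluster weights, 0.23 without interferon-responding clusters and 0.058 with equal score ranges. The 2 microglial genes past 1.5-fold became 1 at resolution 0.5, with equal cell weights, with equal cluster weights or without interferon-responding clusters, and 0 with equal score ranges. The 2 macrophage genes became 1 with equal cell weights or without the border-associated-like Gpnmb cluster. They became 0 with shared cluster weights, without interferon-responding clusters or with shared range weights. The share of all genes past 1.5-fold in WT was 3.67% in microglia and 8.47% in macrophages when genes from 20 UMIs were counted. The step of the summed level from homeostatic to interferon-responding microglia (1.63 in WT, 1.41 in CD169-DTR) was 1.67 and 1.45 at a mitochondrial maximum of 10%, 1.43 in CD169-DTR without Scrublet doublets, 1.41 and 1.17 without integration, 1.51 and 1.31 at resolution 0.5, and 1.68 and 1.44 after subtraction of free RNA. Of the single values in macrophages, H2-D1 changed sign under 3 of 15 alternatives, and B2m and Tapbp under 1 each.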
